A study of Mus musculus with 18 samples.

Results

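Mitotic genes were followed in the nuclei and the cytoplasm of mouse muscle fibers, 10 in all: Ube2c, Cdc20, Ccnb1, Ccna2, Top2a, Mki67, Birc5, Plk1, Aurkb and Bub1. On the array they were taken as all non-control probes that carry one of these names, which gave 16 probe names on 25 spots, of 55681 probe names on 59305 spots and 35527 gene names in all. Ube2c had drawn attention because it was among the probes most raised in tibialis anterior (TA) over extensor digitorum longus (EDL). The TA levels against EDL are therefore given as a description, without a test.

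RNA was hybridised to 18 single-channel arrays, which cover 3 muscles (EDL, soleus and TA) and both fractions with 3 arrays per group, and all animals were female CD1 mice, wild type, aged 3 months. Each array holds the nuclear or the cytoplasmic RNA from a pool of 5 to 10 fibers that had been freed with collagenase and picked intact by hand. By the labels, EDL and soleus pools with the same number came from the same pair of mice (3 and 4, 5 and 6, or 7 and 8), whereas the TA cytoplasm came from mice 5 and 1, 5 and 2, and 9, and the TA nuclei from mice 1, 2 and 3. TA cytoplasm 1 and 2 thus share a mouse and are not wholly separate, so that p-values of TA measure only the spread between these samples. By these labels mouse 5 (TA cytoplasm 1 and 2) and mouse 3 (TA nuclei 3) also gave EDL and soleus pools, which the main fit did not model. Nuclear arrays of a muscle differed less than cytoplasmic ones. Their median SD over probes was 0.11, 0.11 and 0.15 (log2) in EDL, soleus and TA nuclei, and 0.25, 0.37 and 0.40 in cytoplasm. Fits that averaged the nuclear arrays to 1 sample are given below. A pool is a mixture, in which a change in the number of cells of a type and a change in RNA per cell cannot be told apart.

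Adult fibers are syncytia whose nuclei have left the cell cycle, and new nuclei come from satellite cells, the stem cells that lie on the fiber and can divide. The genes studied here are transcribed mainly in G2 and mitosis. In resting cells they are held down by the DREAM complex, which contacts a short promoter element called the cell-cycle genes homology region, while the factor NF-Y binds CCAAT boxes nearby. Cyclins A2 and B1 (Ccna2, Ccnb1) drive CDK1, and Plk1 and Aurkb are mitotic kinases. Cdc20 and Ube2c let the anaphase-promoting complex, a ubiquitin ligase, destroy cyclin B. Bub1 acts at the spindle checkpoint, Birc5 is a partner of Aurkb, Top2a untangles DNA, and Mki67 coats mitotic chromosomes and is the usual marker of cycling cells.

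Of the 10 genes, 8 had an entry in the RefSeq promoter table (build GRCm38.p6, 250 bases before the start and 50 after it), and Ccna2 and Aurkb did not. The letters TTTGAA, on either strand, were found in 5 of the 8, namely Ube2c, Top2a, Mki67, Plk1 and Cdc20. These letters are in 17.9% of all 32851 promoters in the table. The letters CCAAT, on either strand, were found in 7 of the 8, against 37.4% of all promoters, and both were found in 5, against 6.95% of all. The motifs can share at most an end base, and a match describes the sequence only. The 130 bases before the start are shown for 4 of the genes, in the direction of transcription and with both motifs in capitals, as examples with both motifs (Ube2c, Cdc20 and Top2a) and with CCAAT alone (Ccnb1). No relation between motifs and levels was tested.
Ube2c (chr2:164769799-164769928, plus strand): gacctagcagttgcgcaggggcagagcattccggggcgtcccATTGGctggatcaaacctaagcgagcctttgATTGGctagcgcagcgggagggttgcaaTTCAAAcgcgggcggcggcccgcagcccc
Cdc20 (chr4:118437344-118437473, minus strand): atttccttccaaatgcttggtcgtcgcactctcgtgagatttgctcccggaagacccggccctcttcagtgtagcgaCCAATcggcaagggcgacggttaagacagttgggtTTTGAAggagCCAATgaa
Top2a (chr11:99024190-99024319, minus strand): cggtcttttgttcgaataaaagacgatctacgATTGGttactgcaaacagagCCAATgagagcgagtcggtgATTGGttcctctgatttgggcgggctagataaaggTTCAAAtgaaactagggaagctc
Ccnb1 (chr13:100786487-100786616, minus strand): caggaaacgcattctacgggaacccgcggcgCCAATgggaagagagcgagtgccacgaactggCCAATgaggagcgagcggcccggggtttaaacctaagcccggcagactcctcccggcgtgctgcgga

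In the printed stretches TTTGAA begins at position -29 from the start of Ube2c and at -23 from that of Top2a, on the reverse strand in both, and at -18 in Cdc20. In Mki67 it begins at -116 and -98. The match in Plk1 lies after the start, at base 31, and its CCAAT at -14. No match to either motif was found in the window of Birc5.

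**Figure D1:**
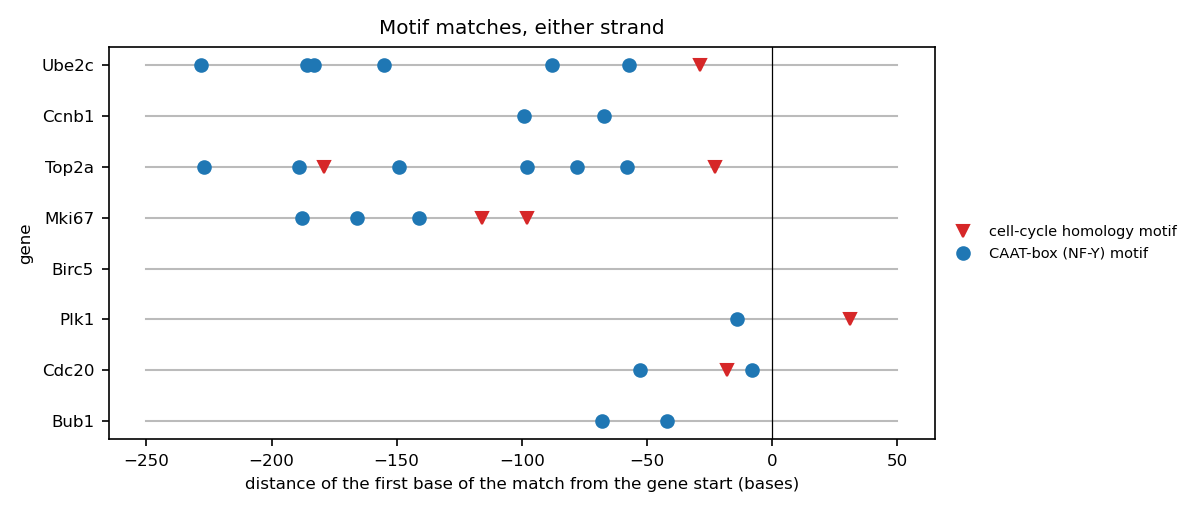
Matches to the cell-cycle homology motif and to the CAAT box in the promoter windows of 8 genes, on either strand, by distance in bases from the gene start. The homology motif lies at -29, -23 and -18 in Ube2c, Top2a and Cdc20, and Birc5 has no match.

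Ube2c is read by 2 probes of 60 bases, shown here because they disagree in EDL nuclei. Their positions are those of the array annotation on mm9, and neither shares 30 bases with a probe of another gene name. The first begins at base 544 of the transcript and the second at base 409.
A_51_P451151 (chr2:164598016-164598075): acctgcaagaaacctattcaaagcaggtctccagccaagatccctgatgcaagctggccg
A_55_P1996941 (chr2:164597496-164597555): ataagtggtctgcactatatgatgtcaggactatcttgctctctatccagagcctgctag

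The arrays lie on 4 slides, numbered in order of scan. Cytoplasm of EDL and soleus and TA cytoplasm 1 share slide 1, and nuclei of EDL and soleus share slide 2. TA cytoplasm 3 is on slide 3, and TA cytoplasm 2 is on slide 4 with the 3 TA nuclei. In EDL and soleus the fraction thus cannot be told apart from the slide, and 5 of the 6 TA arrays are on slides that hold no other muscle. Between 78.9% and 89.3% of spots per array had a positive and significant signal. Slow troponin and the other slow fiber markers were higher in soleus than in EDL (4 of 4 called, median difference 4.04 on the log2 scale), and 4 of 4 nuclear RNAs such as Malat1 and Neat1 were higher in nuclei (median difference 3.03).

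Of the 16 probes, 12 had a value on every array and 10 were well above background on every array. Levels below are quantile-normalized log2 signals, given in the order of replicates 1, 2 and 3, and each is compared only with the same probe on other arrays. The Aurkb probe had no positive signal on any array and gave no value. The probe of Bub1 was well above background on no array, counting an array only where over 50% of its spots passed.

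Several of the mitotic genes, Ube2c among them, were high on 5 arrays, the 3 of TA nuclei and TA cytoplasm 2 and 3, while others overlapped with the remaining arrays. For Ube2c probe A_51_P451151, EDL cytoplasm was at 5.68, 5.69 and 5.68 and EDL nuclei at 3.95, 4.67 and 4.74. Soleus cytoplasm was at 6.16, 5.74 and 5.63 and soleus nuclei at 5.09, 4.69 and 4.91. TA cytoplasm was at 6.14, 10.25 and 11, and TA nuclei were at 9.29, 9.69 and 9.95. TA cytoplasm 1 thus lay within the range of EDL and soleus cytoplasm, and the other 5 TA arrays lay above all remaining arrays.

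Cdc20, the activator of the anaphase-promoting complex, had the same split. It was between 5.99 and 7.10 on the 13 arrays of slides 1 and 2, with TA cytoplasm 1 at 6.99. On TA cytoplasm 2 and 3 it was at 11.17 and 11.65, and on TA nuclei at 10.32, 10.77 and 10.91. There was no overlap between the 5 arrays and the 13.

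Ccna2, or cyclin A2, was at or near background away from these 5 arrays. No EDL cytoplasm array gave it a value, EDL nuclei were at 2.98, 2.16 and 2.00, soleus cytoplasm at 3.72, 4.16 and 3.84, and soleus nuclei at 4.03, 3.97 and 4.47. TA cytoplasm was at 2.36, 9.34 and 10.15 and TA nuclei at 8.51, 9.25 and 9.71. The probe was well above background on the 5 arrays and on 1 soleus nuclear array only, so that its level elsewhere is a bound. TA nuclei were at least 34-fold over EDL nuclei. TA cytoplasm was at least 7.42-fold over soleus cytoplasm, with 2 of its 3 arrays well above background (limma adjusted p = 0.084, measured means 7.29 and 3.91).

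Top2a, the DNA topoisomerase of dividing cells, was well above background on the same 5 arrays and on no other. It was at 5.62 and 6.83 in TA cytoplasm 2 and 3 and at 5.02, 5.51 and 6.00 in TA nuclei, while TA cytoplasm 1 was at 2.65. The other arrays with a value lay between 2.62 and 3.94. TA nuclei were at least 2.78-fold over soleus nuclei (limma adjusted p = 0.109, measured means 5.51 and 3.58).

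Mki67 was read by 2 probes that did not move alike. Probe A_51_P253803 was at 6.28, 9.15 and 10.00 in TA cytoplasm and at 8.42, 9.09 and 9.42 in TA nuclei, against 5.84 to 7.42 on the 13 arrays of slides 1 and 2. Probe A_55_P2073377 was between 6.25 and 7.19 on the 5 arrays, within its range of 4.89 to 7.85 elsewhere. Both probes were well above background on every array. Soleus cytoplasm 2 stood out from its group for the second probe, at 7.85 beside 6.48 and 5.27.

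Birc5, or survivin, has 3 probes. A_55_P1983773 lay between 9.91 and 11.26 on the 5 arrays and between 6.66 and 9.73 on the other 13, and A_55_P1983768 between 7.05 and 8.36 and between 4.89 and 7.04. The highest of the 13 was soleus cytoplasm 2 for both, so that the gap to the lowest TA nuclear array was small. A_55_P1983769 overlapped, at 5.72 to 6.64 against 5.38 to 6.97.

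Plk1, polo-like kinase 1, was at 9.20, 10.10 and 10.97 in TA cytoplasm and at 8.93, 9.09 and 9.22 in TA nuclei. It lay between 8.03 and 8.97 in EDL and soleus cytoplasm and between 7.17 and 7.47 in their nuclei. TA arrays exceeded the other muscles of the same fraction, TA cytoplasm 1 included. The 5 arrays together did not separate from the 13, since TA cytoplasm 1 was above TA nuclei 1 and 2.

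Ccnb1, or cyclin B1, differed from the others in 2 of its probes, both well above background on every array. A_55_P1952256 was at 7.17, 8.14 and 7.76 in EDL cytoplasm, 7.74, 6.79 and 7.11 in soleus cytoplasm, and 7.49, 7.48 and 7.85 in TA cytoplasm. A_55_P2128668 lay between 6.28 and 7.03 in the cytoplasm of all muscles. The third probe, A_55_P2065671, was well above background on 8 arrays and lay between 5.08 and 6.36 on the 5 arrays, while soleus cytoplasm 2 reached 6.34. By the first 2 probes the cytoplasm arrays of the 3 muscles overlapped for cyclin B1, while for cyclin A2 they did not on TA cytoplasm 2 and 3. In nuclei A_55_P1952256 did not overlap, at 5.93 to 6.54 in TA, 5.37 to 5.70 in soleus and 4.35 to 4.86 in EDL. For A_55_P2128668 the TA and soleus nuclei overlapped.

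**Figure D2:**
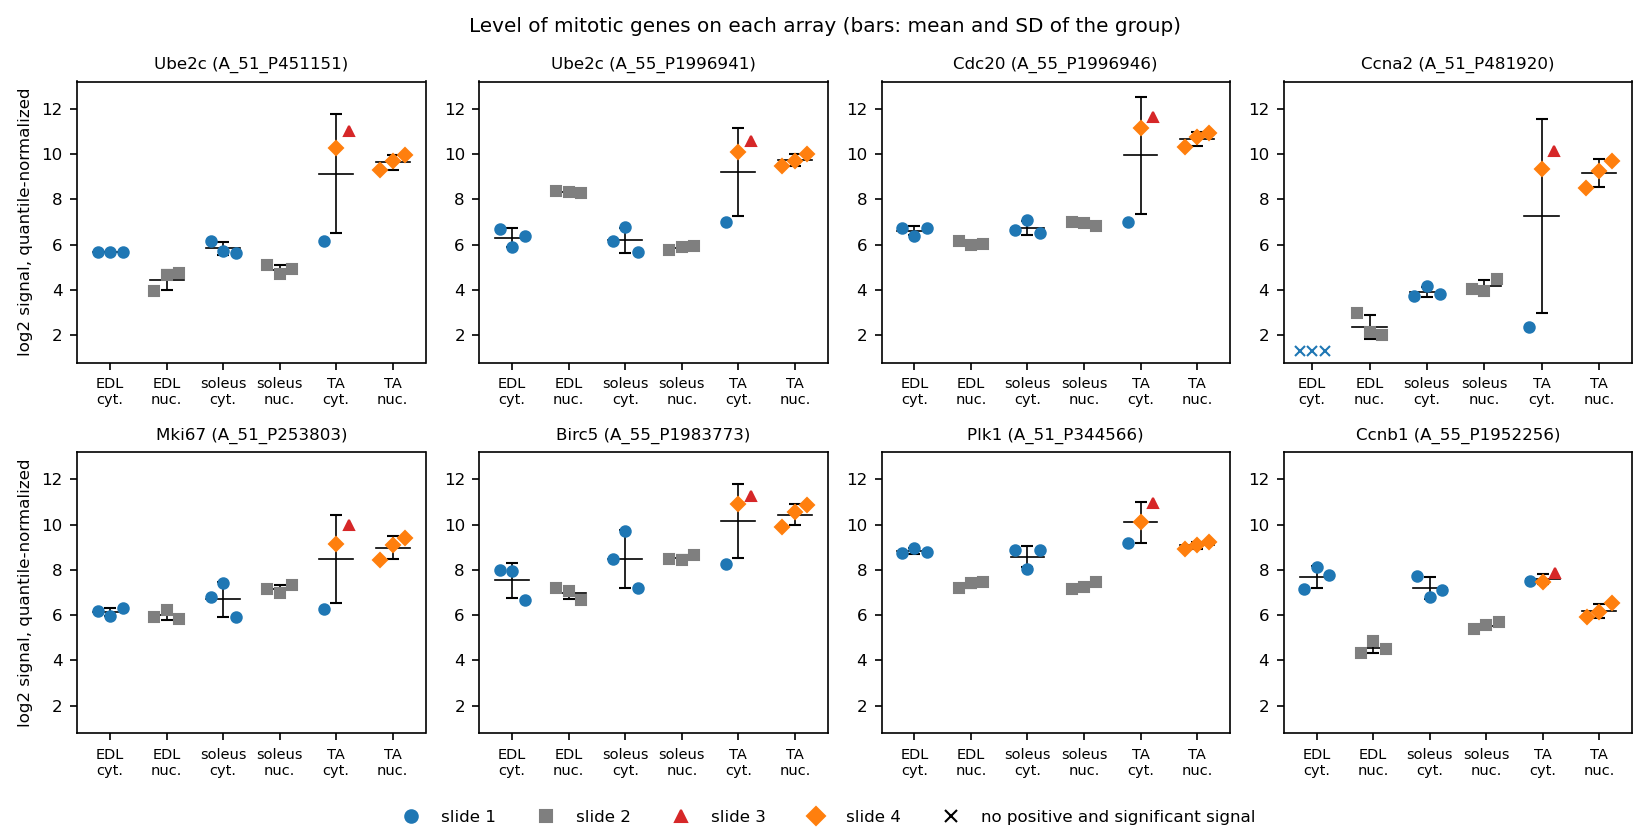
Quantile-normalized log2 signal of 8 probes on 18 arrays, by muscle and fraction, with each array marked by its slide, crosses for no positive and significant signal, and the group mean and SD as bars. Ube2c, Cdc20, Ccna2, Mki67 and Birc5 are high on the 5 arrays of slides 3 and 4 (red and orange) and TA cytoplasm 1 (blue) lies with EDL and soleus, while Ccnb1 differs by fraction.

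Counted over the members, 8 of the 15 probes with a value on each of the 5 arrays were higher on all 5 than on any of the 13 arrays of slides 1 and 2, where a missing value counts as below. They come from 6 genes, Ube2c (both probes), Ccna2, Top2a, Mki67, Birc5 (2 probes) and Cdc20. Over all probes with a value on the 5 arrays the share was 6.28%. Without Ube2c, which the rule used, 6 of 13 probes from 5 genes did so. TA cytoplasm 1 lay within the range of the 6 cytoplasm arrays of EDL and soleus for 10 of 15 probes, above it for 3 (Ube2c A_55_P1996941, Plk1 and Bub1) and below it for 2 (Ccna2 and Mki67 A_55_P2073377).

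**Figure D3:**
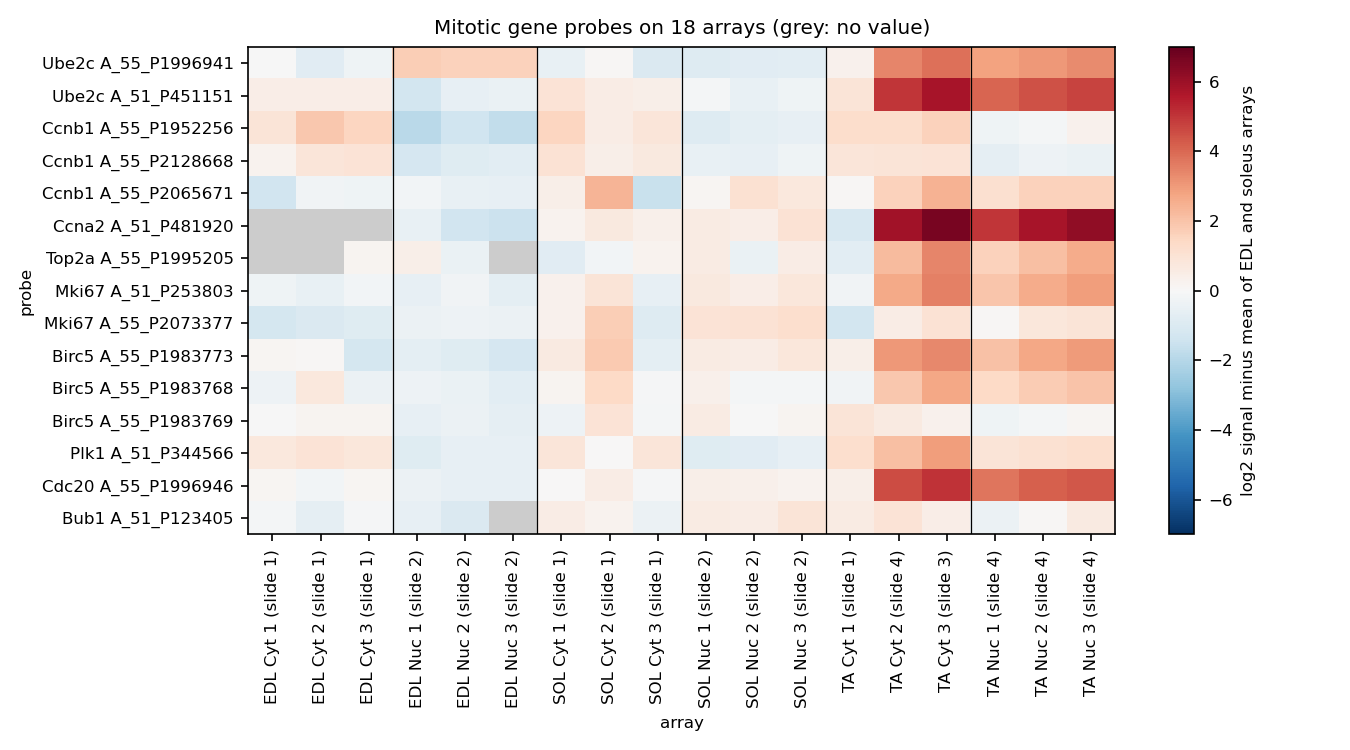
Log2 signal of 15 probes on 18 arrays, each minus its mean over the 12 EDL and soleus arrays, with grey for no value. The last 5 columns, TA cytoplasm 2 and 3 and the TA nuclei, are raised for Ube2c, Ccna2, Top2a, Mki67 A_51_P253803, Birc5 (2 probes) and Cdc20, and TA cytoplasm 1 is not.

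Whether TA and soleus differ was tested for the probes other than Ube2c, whose differences are given without a test because the rule used TA (3.44 and 4.02 on the log2 scale for its 2 probes). Over both fractions 8 of 13 probes passed the threshold in limma, all 8 higher in TA, where 37.8% of all 41366 probes tested were called, 18.9% higher and 18.9% lower. Their median difference, called or not, was 1.32, against 0.05 over all probes. Cdc20 was higher by 3.47 ± 0.55 (SE; adjusted p = 0.000257), Mki67 A_51_P253803 by 1.81 ± 0.46 (adjusted p = 0.00689) and Plk1 by 1.65 ± 0.24 (adjusted p = 0.000117). Ccna2 and Top2a were called too (adjusted p = 0.00486 and 0.0187), but in soleus Ccna2 was well above background on 1 of 6 arrays and Top2a on 0, so that the bounds above stand in place of a size. The remaining calls were Birc5 A_55_P1983773 at 1.80, Birc5 A_55_P1983768 at 1.32 and Ccnb1 A_55_P1952256 at 0.53 (adjusted p = 0.009, 0.0185 and 0.0481). The second Mki67 probe was lower in TA by value, at -0.36 (adjusted p = 0.5).

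With slides 3 and 4 as terms beside the group means, 0 of 13 were called, against 1.48% of all probes higher and 3.29% lower. In that fit TA cytoplasm 1 alone ties TA to the other muscles. The TA nuclei enter through their mean minus TA cytoplasm 2 on slide 4 (-0.51 for Cdc20, -0.17 for Mki67 A_51_P253803). Mki67 A_51_P253803 was then at -0.73, Cdc20 at -0.09 and Plk1 at 0.75 (adjusted p = 0.189 for Plk1). On slide 1 alone, TA cytoplasm 1 minus the mean of soleus cytoplasm was 0.25 for Cdc20, 0.62 for Plk1 and -0.42 for Mki67 A_51_P253803, with no test. With slide as a random block 2 of 13 were called, Cdc20 and Plk1, beside 6.31% of all probes. Without TA cytoplasm 1 the count was 8, and without TA cytoplasm 2 it was 5, with Top2a, Birc5 A_55_P1983768 and Ccnb1 A_55_P1952256 lost. The Ccnb1 call held in 5 of 18 fits that each left out 1 array. For 5 of the 6 TA arrays the muscle and the slide cannot be told apart.

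**Figure D4:**
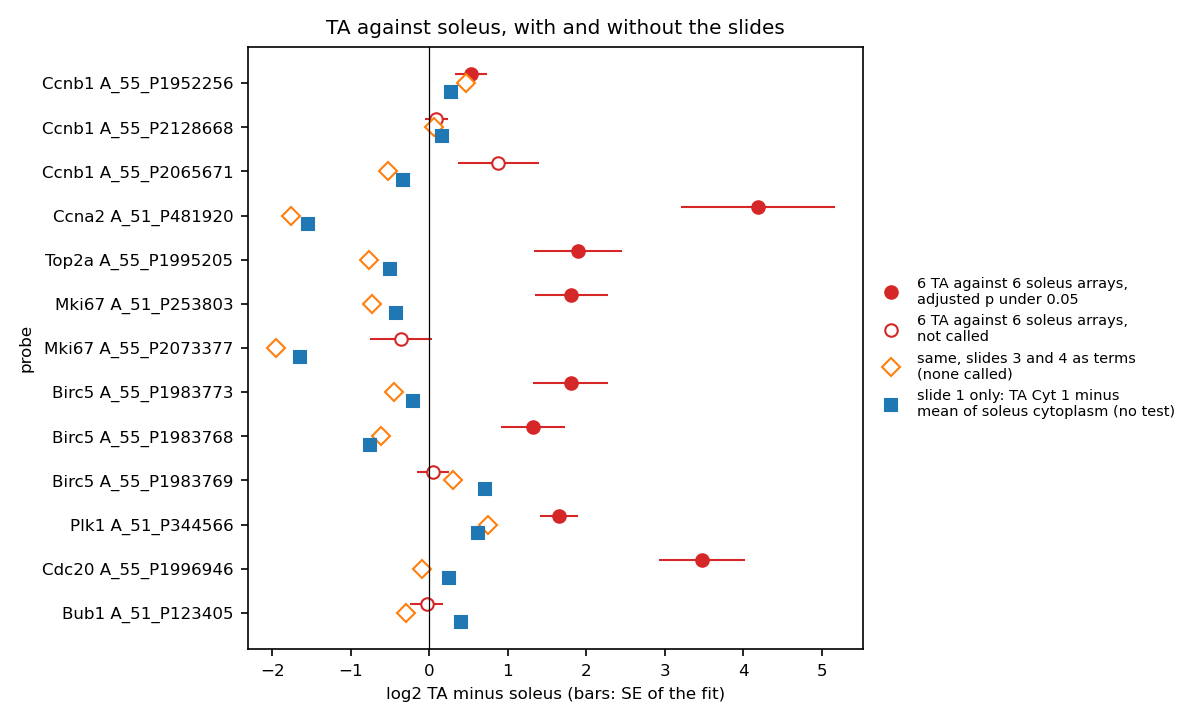
Log2 difference of TA minus soleus for 13 probes, over 6 arrays of each (red, with SE of the fit), with slides 3 and 4 as terms (orange), and on slide 1 alone (blue, TA cytoplasm 1 minus the mean of 3 soleus cytoplasm arrays). The 8 called differences are positive, and 6 of them are below 0 with the slide terms, which rest on TA cytoplasm 1. The values of Ccna2, Top2a and Bub1 include arrays at or near background and are no sizes.

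TA against EDL is the comparison that pointed to Ube2c and is described only. Mean levels in EDL and TA were 5.07 and 9.39 for Ube2c A_51_P451151, 7.32 and 9.48 for Ube2c A_55_P1996941, and 6.33 and 10.30 for Cdc20. The comparisons of TA with EDL and with soleus use the same TA arrays.

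Nuclei were compared with cytoplasm to see where the transcripts of these genes lay. By 2 of 3 probes cyclin B1 was lower in nuclei in each muscle, as was Plk1. Without scaling between arrays the calls of all 3 probes were lost in soleus, and those of Plk1 also in EDL and TA. Over the muscles 4 of 13 probes tested were called in limma, all 4 lower in nuclei, where 69.8% of all 40541 probes were called, 38.6% lower and 31.2% higher. Their median was -0.17, against -0.08 over all probes. By count the share of members called was below that of probes at large, and this difference was not tested. Without scaling, the median of all probes moved from -0.08 to 0.42 over the muscles, from -0.01 to 0.96 in soleus, from -0.05 to 0.35 in EDL and from -0.22 to -0.16 in TA.

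Ccnb1 A_55_P1952256 was at 4.35, 4.86 and 4.51 in EDL nuclei, 5.37, 5.55 and 5.70 in soleus nuclei, and 5.93, 6.12 and 6.54 in TA nuclei, each below all cytoplasm arrays of its muscle given above. Its difference was -2.07 ± 0.16 over the 3 muscles (SE; limma adjusted p = 3.83e-08). In EDL the difference was -3.11 (adjusted p = 1.4e-06), in soleus -1.68 (0.000315) and in TA -1.41 (0.000701). Ccnb1 A_55_P2128668 was at -1.39 ± 0.12 (adjusted p = 1.23e-07), with -1.61, -1.16 and -1.39 in the 3 muscles in the same order. Both probes were well above background on every array.

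In soleus neither of these cyclin B1 probes was called without scaling, at -0.63 and -0.14 (limma adjusted p = 0.0642 and 0.655). Nor was either called there with slide as a random block, at -1.74 and -1.19 (0.0587 and 0.0818). With nuclear arrays averaged, both lost their calls in soleus and in TA. The third probe did not share the lower nuclear level, at 0.16 ± 0.43 over the muscles (adjusted p = 0.744) and at 0.19, 0.23 and 0.08 in EDL, soleus and TA. Plk1 was lower in nuclei by value and by test, at -1.26 ± 0.19 over the muscles (adjusted p = 3.22e-05), and at -1.48 in EDL and -1.29 in soleus. Without scaling Plk1 was at -0.83, -0.08 and -0.59 in EDL, soleus and TA (adjusted p = 0.0597, 0.864 and 0.169), none of them called. Its calls in single muscles were also lost with nuclear arrays averaged (adjusted p = 0.159, 0.253 and 0.28), and in soleus with slide as a random block (0.0548). Its call in TA (-1.01) was lost without TA cytoplasm 3 or TA nuclei 1. Birc5 A_55_P1983769 was at -0.43 (adjusted p = 0.032), and its call was lost in 9 of 18 fits that each left out 1 array. Ccnb1 and Plk1 kept their calls over the 3 muscles in all 18 of those fits. On slide 4 alone, the mean of TA nuclei minus TA cytoplasm 2 was -1.28 for Ccnb1 A_55_P1952256 and -1.02 for Plk1.

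Ube2c was called in one muscle. Its probe A_55_P1996941 was at 8.39, 8.31 and 8.30 in EDL nuclei against 6.67, 5.88 and 6.39 in EDL cytoplasm, a difference of 2.02 ± 0.63 (limma adjusted p = 0.0155). In soleus it was at 5.78, 5.90 and 5.92 in nuclei and 6.14, 6.78 and 5.68 in cytoplasm. The other Ube2c probe was lower in EDL nuclei by value, at -1.23 ± 0.81 (adjusted p = 0.224), and reached 4.74 at most there. The probes correlated at 0.78 over the 18 arrays but at -0.52 over the 13 of slides 1 and 2 (Pearson, a description over arrays that share slides). The call of A_55_P1996941 in EDL was lost with slide as a random block (0.86, adjusted p = 0.563) and without EDL cytoplasm 2. The rule used the EDL levels of Ube2c, so that its p-values in EDL are a description only.

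In EDL 4 of 13 probes were called, 3 lower in nuclei and 1 higher, beside 46.6% of all probes (26.5% lower, 20.0% higher). The 1 higher was Ube2c A_55_P1996941, whose EDL levels the rule used, and the 13 include both Ube2c probes. The 3 lower were Ccnb1 (2 probes) and Plk1. In soleus 3 of 15 were called, all lower, beside 40.3% of all probes (21.7% lower). This direction turned without scaling, where 4 were called, all higher in nuclei (both Mki67 probes, Birc5 A_55_P1983769 and Bub1), beside 62.1% of all probes. In TA 3 of 15 were called, all lower, beside 52.7% of all probes (33.5% lower). Cdc20 showed no called difference in any muscle, at -0.55 in EDL, 0.17 in soleus and 0.73 in TA (standard error 0.78 each). In TA this rested on TA cytoplasm 1. Without it, Cdc20 and Ube2c A_51_P451151 were lower in TA nuclei, at -0.75 and -0.98 (adjusted p = 0.0141 and 0.0115). The groups share 1 estimate of the spread, and without TA cytoplasm 1 Cdc20 was also called in EDL, at the same -0.55 (adjusted p = 0.0364). Ccna2 differed by 1.87 ± 1.39 in TA and Top2a by 0.48 ± 0.80, neither called (adjusted p = 0.275 and 0.633).

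**Figure D5:**
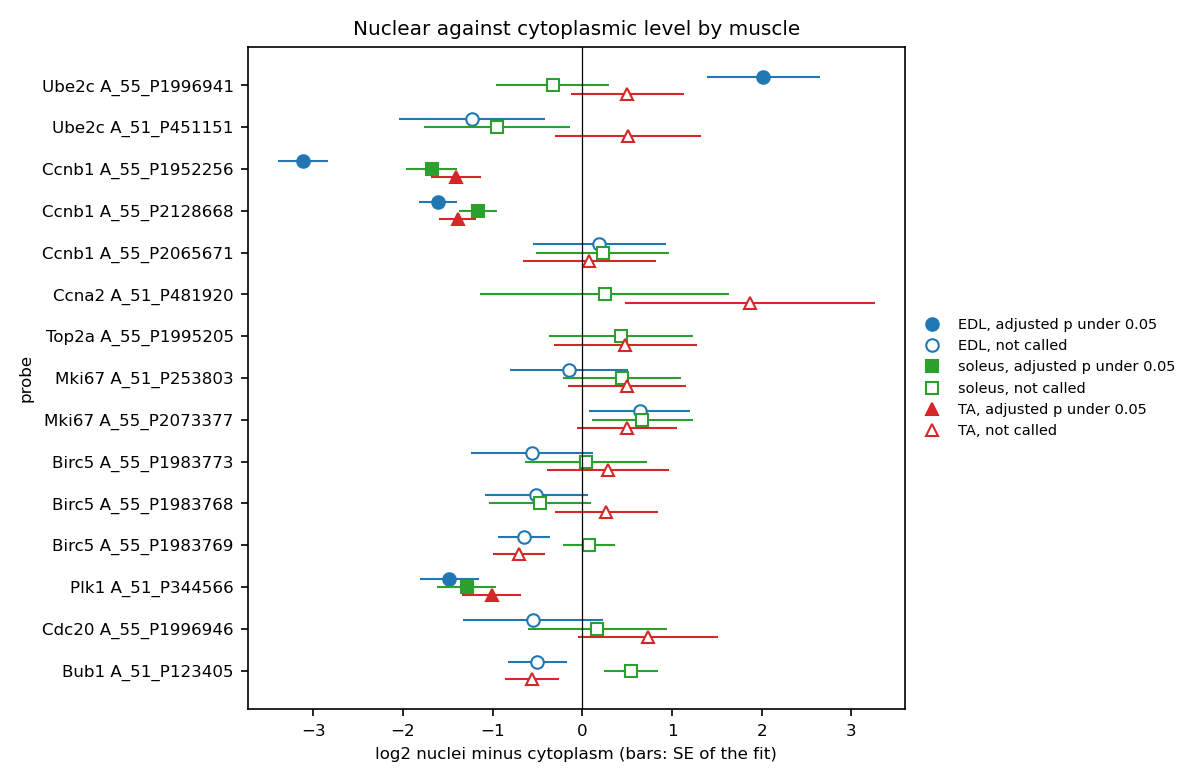
Log2 nuclei minus cytoplasm of 15 probes in EDL, soleus and TA, with SE of the fit; filled symbols passed an adjusted p of 0.05. Ccnb1 (2 probes) and Plk1 lie below 0 in all muscles. Ube2c A_55_P1996941 in EDL is the filled symbol above 0, a description only because the rule used its EDL levels.

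Whether the difference of fractions changed with the muscle was tested by the interaction. In limma 0 of 13 probes were called, 2 had an unadjusted p under 0.05, and the smallest adjusted p was 0.0616 (Ccnb1 A_55_P1952256). Over all probes 1.57% were called at the adjusted threshold, and the share at the unadjusted cut was not counted. The count was 0 to 1 when single arrays were left out. It rose to 4 without scaling between arrays, where 36.4% of all probes were called.

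Soleus and EDL share their slides and mice. Over both fractions 1 of 13 probes was called in limma, higher in soleus, beside 3.83% of all 41888 probes (2.27% higher in soleus), and 4 had an unadjusted p under 0.05. In nuclei 1 of 15 was called, also higher, beside 1.56% of all probes (0.978% higher), and 7 had an unadjusted p under 0.05. The share of all probes at that unadjusted cut was not counted, so nothing is read from the 4 and the 7. The median difference of the members was 0.50 over both fractions and 0.86 in nuclei, against -0.04 and 0.02 over all probes. With EDL and soleus arrays fitted alone, 4 of 15 were called in nuclei, beside 1.99% of all probes. In that fit the group means already hold the slide, so no slide term was added. Of the 4, Bub1, Ccna2 and Cdc20 (0.86, limma adjusted p = 0.0407) were higher in soleus. Ube2c A_55_P1996941, whose EDL levels the rule used, was lower (-2.46). Ccna2 was well above background on 1 soleus nuclear array and on no EDL array. In the main fit the call over both fractions and in nuclei was Bub1 (limma adjusted p = 0.0281 and 0.0416). Neither muscle was well above background for Bub1, so no size is given. Its 10 spots per array gave a positive signal on 3, 1 and 0 spots in EDL nuclei and on 10, 10 and 10 in soleus nuclei. The spread between its positive spots was 0.50, 0.37 and 0.27 (SD, log2) in soleus nuclei, but 5.63 in EDL nuclei 1 and 2.34 in EDL cytoplasm 2. The call over both fractions held in 10 of the 16 fits without 1 array that could test it and was lost when normexp replaced the processed signal (adjusted p = 0.131).

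In cytoplasm 0 of 13 were called in limma, beside 1.42% of all probes called. At an unadjusted p under 0.05 there was 1, with the share of all probes at that cut not counted. Mki67 A_55_P2073377, a marker of cycling cells, was at 7.10, 7.17 and 7.34 in soleus nuclei and 5.73, 5.81 and 5.73 in EDL nuclei, which do not overlap. Its difference over both fractions was 1.43 ± 0.39 (limma adjusted p = 0.0593). It was 1.43 (adjusted p = 0.0379) with EDL and soleus arrays fitted alone, where TA arrays no longer entered the estimate of the spread. Ube2c A_55_P1996941 was lower in soleus nuclei by value (-2.46 ± 0.63 on the log2 scale). This is given without a test, because the rule used the EDL levels of Ube2c. The counts of soleus against EDL include its probes.

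The pathway around the members was read from lists of genes, each by its brightest probe. These lists were chosen with results of these arrays known, and their counts are read only beside those of all probes. Among 48 genes of G2, mitosis and the spindle outside the 10, 24 of 41 tested were called higher in TA than in soleus and 0 lower (limma), with a median of 0.88, where 18.9% of all probes were higher and 18.9% lower. The named genes with the smallest adjusted p were Racgap1 (2.10), a protein of cytokinesis, Mybl2 (2.12), the B-Myb factor of mitotic genes, and Espl1 (1.56), or separase (adjusted p = 2.11e-05, 7.9e-05 and 3.21e-05). With slides 3 and 4 as terms 1 was called, and the median was 0.37 beside 0.20 over all probes. Of 40 with a value on the 5 arrays, 16 were higher there than on all 13 others, beside 6.28% of all probes. Foxm1, Cenpa, Ccnb2 and Kif20a were among them (named after their values were seen).

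Of the genes of DNA replication and S phase, 15 of 29 were called higher in TA than in soleus and 2 lower (median 0.83), beside the same 18.9% of all probes each way. E2f2, an E2F factor, was highest by 3.80 (adjusted p = 1.84e-05) among those named, followed by Chaf1b (1.3), a chromatin assembly subunit, and Lig1 (1.26), DNA ligase 1. With slide terms E2f2 was at 0.92 (adjusted p = 0.177), and 0 genes of the list were called higher and 1 lower. On the 5 arrays 9 of 28 with a value were above all others, beside 6.28% of all probes. These included Mcm6, Mcm7 and Rrm2, also named after their values were seen.

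The anaphase-promoting complex, on which Cdc20 and Ube2c act, had 7 of 14 genes called higher in TA and 3 lower (median 0.36), again beside 18.9% of all probes in each direction. Ube2s, which elongates ubiquitin chains for this ligase, was higher by 1.76 (adjusted p = 3.67e-05), Cdc26 by 1.63 and Anapc2 by 1.00 (adjusted p = 0.000185 and 0.000218), while Anapc13 was lower by 0.60 (value -0.60, adjusted p = 0.00166). With slide terms 0 were called higher and 1 lower. Histone genes named Hist1 to Hist4 had 16 of 41 higher and 4 lower, beside 18.9% each way, among them Hist1h2ag at 2.54 (adjusted p = 0.000674), and 0 with slide terms. Regulators of G1 and cell-cycle inhibitors had 4 of 21 higher and 9 lower (median -0.28), beside 18.9% of all probes higher and 18.9% lower. Cdk4 and cyclin D3 (Ccnd3) were higher by 2.02 each (adjusted p = 2e-04 and 0.000418). Gadd45g was also higher, by 1.09 (adjusted p = 0.00453). Cdkn1b, the inhibitor p27, was lower (-0.77, adjusted p = 0.00171), as were Lin54 (-1.6, 0.00212) and E2f3 (-0.99, 0.00268). With slide terms Cdk4 was at 0.23, Ccnd3 at -0.26, Gadd45g at -0.26, Cdkn1b at -0.33, Lin54 at 0.2 and E2f3 at -0.26. On the 5 arrays 3 of 20 with a value were above all others (Cdk4, Ccnd3 and Cdkn1a), beside 6.28% of all probes. Of 20 with a value on every array, 2 were below all others there (Gadd45a and Lin54).

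Between fractions over the 3 muscles, 7 of 37 genes of G2 and mitosis were higher in nuclei and 13 lower, where 31.2% of all probes were higher and 38.6% lower, and the counts of the other lists stand beside the same shares. Hmmr was lower by 1.98 and Mad2l1, a spindle checkpoint protein, by 1.44 (values -1.98 and -1.44, adjusted p = 3.49e-07 and 4.59e-08), while Pttg1, or securin, was higher by 0.88 (adjusted p = 0.000143). Replication genes had 13 of 29 higher and 6 lower, Cdc45 at -1.41 (adjusted p = 1.28e-07) among the latter. Gadd45b at 1.57 and cyclin D2 (Ccnd2) at 1.04 were higher in nuclei (adjusted p = 3.72e-07 and 3.35e-07) in the G1 list, of which 8 of 21 were higher and 2 lower. Soleus against EDL, where 3.83% of all probes were called, gave 1 of 37 for G2 and mitosis (Spc25, at 1.20, adjusted p = 0.0466), 2 of 29 for replication, all higher in soleus, 0 of 22 in the G1 list, and 2 of 14 for the anaphase-promoting complex, with Anapc7 higher (0.50) and Anapc5 lower (-0.53).

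Genes most like Ube2c over the arrays were ranked by Pearson correlation across the 18 arrays, over 35528 probes with a value on each. For its brighter probe A_55_P1996941 these were Metrn, Gm2451, Hoxa11as, Tnfaip2 and the transcript ENSMUST00000109588 (0.95 to 0.96), and Cdc20 was 924th of 24867 names, at 0.81. For A_51_P451151 Cdc20 was 31st, at 0.98, and Mki67 521st, at 0.91. Over the 13 arrays of slides 1 and 2 alone the correlation of Cdc20 with A_51_P451151 was 0.49. All arrays of a slide share whatever that slide carries, so these are descriptions.

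Markers of other cells were read on the same arrays, and their part in these results was not tested. Among 10 genes of satellite cells and myoblasts, Cdh15, or M-cadherin, was between 6.26 and 7.00 on the 13 arrays of slides 1 and 2 (TA cytoplasm 1 at 6.60) and at 12.53, 11.55, 12.12, 11.88 and 12.19 on TA cytoplasm 2 and 3 and TA nuclei 1 to 3. It was the 1 gene of 7 with a value on the 5 arrays that separated upwards, beside 6.28% of all probes. Sdc4 was lower on the 5 arrays. Against soleus, 1 of 6 genes tested was called higher in TA and 3 lower (limma, median -0.41), beside 18.9% of all probes each way. The lower ones were Sdc4 (-1.99), Ncam1 (-0.96) and Megf10 (-0.89), with adjusted p = 2.93e-06, 0.000445 and 0.0327. Pax7, the defining factor of satellite cells, was between 4.79 and 5.98 on the 5 arrays, between 4.71 and 5.23 in soleus nuclei and at 3.83 on TA cytoplasm 1. In EDL it was between 2.68 and 3.88, with no value on EDL cytoplasm 1, and in soleus cytoplasm only array 1 gave a value (4.93). The probe was well above background on 4 of the 5 arrays, on 4 EDL and soleus arrays, and not on TA cytoplasm 1. Myf5 had no value on any of the 5 and was well above background on no array. The summed linear signal of the list was 4690 to 8620 on the 5 arrays, 3700 on TA cytoplasm 1, 1070 to 3860 in EDL and 1570 to 4200 in soleus. On the 5 arrays Cdh15 alone made up most of that sum. Myod1, the other bright gene, was between 9.49 and 11.12 on the 5 arrays and between 8.95 and 11.76 on the rest.

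Other marker lists had no gene that separated upwards on the 5 arrays, among 11 of endothelium, 11 of macrophages and leukocytes, 8 of fibroblasts and fibro-adipogenic cells, 6 of Schwann cells and 5 of red blood cells. Over all probes with a value there the share was 6.28%. The summed signal of the macrophage list was 30400 to 39800 on the 5 arrays, 41900 on TA cytoplasm 1, and 32400 to 42200 in EDL and soleus. The Itgam probe, at 14.74 to 15.24 on every array, made up most of that sum, which thus says little of the other genes. Next came Csf1r, between 11.09 and 12.68. The endothelial sum was 12600 to 14600 in TA nuclei, 10100 to 11200 in EDL and soleus nuclei and 3380 to 5740 in TA cytoplasm. The fibroblast sum was 39600 to 43200 in TA nuclei and 65000 to 74700 in the nuclei of the other muscles. Myog and Tmem8c, genes of myoblasts that differentiate and fuse, and the embryonic and neonatal myosins Myh3 and Myh8 were looked at after values had been seen. Tmem8c was at 10.98 and 8.99 on TA cytoplasm 2 and 3 and at 10.38, 9.80 and 10.52 on TA nuclei, against 5.91 on TA cytoplasm 1, and Myog was at 9.31, 7.86, 8.69, 8.5 and 8.82 on the same 5 arrays against 6.23. Myh3 was between 7.22 and 9.62 on the 5 arrays, beside 7.52 to 10.40 in soleus, 5.61 to 8.49 in EDL and 3.53 on TA cytoplasm 1. Myh8 was between 13.63 and 14.73 on the 5 arrays and between 14.12 and 14.94 on the other 13. Neither myosin separated upwards.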

How the data were processed

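Per the file headers and the submitters' processing notes, the authors read each spot's intensity with Feature Extraction 10.7.3.1, and the deposited processed signal is corrected for background within its array and not scaled between arrays. The authors' own deposited table of quantile-normalized intensity has values for 3687 spots, which include 2 of the 16 member probes, and served as an alternative added after the data were seen. Processed signals were taken to log2. Spots without a positive and significant signal or marked as outliers were set to missing, arrays were quantile-normalized and spots were averaged by probe name. A model with 6 group means was fitted in limma 3.58.1 (R 4.3.3) to probes with at least 2 values in each group involved, with 2-sided p-values, the Benjamini-Hochberg adjustment over every probe tested and a threshold of 0.05. Differences are log2, the first-named group minus the second. For a bound, each dim array was set to the lowest signal that any probe well above background had on it, or to the probe's own where that was higher.

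Genes of each list were named by the smallest adjusted p, at most 3 per direction, if well above background on at least 1 array per group, except where the text says otherwise. The members and lists were chosen with earlier results of these data known. Deviations from group means of arrays with the same number correlated between -0.11 and 0.10 in EDL and soleus (18 pairs), whose numbers share mice by the labels, and between -0.09 and 0.13 in TA. Alternatives were another scaling, background, filter or number of values, a replicate block, slide blocks, averaged nuclear arrays and each array left out; slides 3 and 4 as fixed terms were also added after the data were seen. The number of arrays limits the precision. Figures were drawn with matplotlib 3.10.9 in Python 3.11.15.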

Additional observations from a re-analysis of the deposited data

How the results depend on the processing

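Every alternative that changed a count of called member probes by over 1.5 times is given here. Slide as a fixed block means EDL and soleus arrays fitted alone. Their group means already hold the slide, so no slide term was added. For soleus against EDL over both fractions (1 probe) the count was 2 with 75th percentile scaling and with no scaling, 0 with 3 of 3 values and with nuclear arrays averaged, 3 with slide as a random or as a fixed block and 4 with slides 3 and 4 as terms, and 0 to 3 when single arrays were left out (3 without soleus cytoplasm 3 or TA cytoplasm 1; 0 without EDL cytoplasm 2, EDL nuclei 1 or 2, soleus cytoplasm 1 or 2, or any soleus nuclei). In nuclei (1 probe) it was 2 with 75th percentile scaling, 3 with no scaling, 0 with normexp, with 3 of 3 values and with nuclear arrays averaged, 2 with slide as a random block, 4 with slide as a fixed block and with the slide terms, and 0 to 4 when single arrays were left out (4 without TA cytoplasm 1, 2 without TA cytoplasm 3; 0 without EDL cytoplasm 1 or 3, any EDL or soleus nuclei, or TA nuclei 2). In cytoplasm it was 0 throughout. With nuclear arrays averaged, far fewer of all probes were called too, over both fractions and in nuclei. The interaction (0 probes) gave 1 with 75th percentile scaling, with no filter on dim spots and with the slide terms, 4 with no scaling and 0 to 1 with single arrays left out, with 1 without EDL cytoplasm 1, soleus cytoplasm 1, TA cytoplasm 1 or TA cytoplasm 3.

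Nuclei against cytoplasm in soleus gave 4 probes without scaling, all higher in nuclei in place of all lower. The comparison of fractions gave 3 to 6 probes over the muscles and in EDL, 3 to 4 in soleus and 2 to 5 in TA when single arrays were left out, with 6 in EDL without TA cytoplasm 1, 5 in TA without TA cytoplasm 1 or TA nuclei 3 and 2 without TA nuclei 1. With nuclear arrays averaged to 1 sample per nuclear group it gave fewer in each muscle, and far fewer of all probes were called too. With slide as a random block it gave 0 in soleus, beside 6.89% of all probes. TA against soleus (8 probes) gave 2 with slide as a random block, beside 6.31% of all probes, and 0 with the slide terms, as given above. It gave fewer with nuclear arrays averaged, where far fewer of all probes were called too. With single arrays left out it gave 5 to 8, with 5 without TA cytoplasm 2. Under the slide terms Birc5 A_55_P1983773 was at -0.45, Birc5 A_55_P1983768 at -0.62 and Ccna2 at -1.76 in that comparison. Top2a was at -0.77, Mki67 A_51_P253803 at -0.73 and Cdc20 at -0.09. TA cytoplasm 1 then ties TA to soleus, and the TA nuclei enter through their difference from TA cytoplasm 2. For Ccna2 and Top2a the readings of TA cytoplasm 1 and soleus are at or near background. Birc5 A_55_P1983769 was at 0.05 with no scaling over the 3 muscles. Without TA cytoplasm 1, nuclei against cytoplasm turned to -0.38 over the muscles and -0.75 in TA for Cdc20, and to -0.98 in TA for Ube2c A_51_P451151. With other single arrays left out these reached 0.4, 1.58 and 1.45. The authors' table gives values for 2 member probes, both of Ccnb1, so that fewer probes were tested there: both were called for nuclei against cytoplasm over the muscles and in each muscle, 1 for the interaction, 1 for TA against soleus and 0 for soleus against EDL over both fractions, in nuclei and in cytoplasm. The cause of the other changes was not tested.

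With the replicate block 4 probes were called for nuclei against cytoplasm over the muscles, 4 in EDL, 3 in soleus, 3 in TA, 0 for the interaction, 1 for soleus against EDL over both fractions and in nuclei, and 7 for TA against soleus, where Ccnb1 A_55_P1952256 was lost (adjusted p = 0.068). The block gained Ube2c A_55_P1996941 over the muscles (adjusted p = 0.0385) and in soleus against EDL nuclei, where the rule used its EDL levels. It gained Mki67 A_55_P2073377 (0.0411) and lost Bub1 (0.0551). Of 3101 single values under alternatives, 2928 stayed on their side of the threshold, 89 lost a call, 74 gained one, 10 changed sign with a call, and 111 of those uncalled changed sign.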
